A study of Mus musculus with 6 samples.

Results

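The genes described here are 10 whose left ventricular transcript level differed by genotype label under pressure overload. ND5, Ncam1, Serpina3n, Pam, Cdk5r1 and Rpap3 read higher in Kdm3a transgenic (Kdm3a-Tg) hearts, and Ces1d, Dusp23, Gal3st3 and Ip6k2 read lower. These 10 of the 9577 named genes measured were chosen by their values, because the arrays labelled Tg differed from those labelled WT in both replicates of pressure-overloaded hearts, so that difference is given below as a description with no test. The study asked whether raising KDM3A in heart muscle cells worsens the response to pressure load. Bead arrays were run on left ventricle RNA of 6 male C57BL/6 mice, operated on at 6 to 8 weeks of age and harvested 3 weeks later according to the labels, whereas the published text describes a longer interval after TAC for its transgenic mice. Transverse aortic constriction (TAC) narrows the aortic arch and loads the left ventricle, and Sham animals went through the operation with no constriction. The groups were WT Sham (n = 1), WT TAC (n = 2), Tg Sham (n = 1) and Tg TAC (n = 2). Tg animals carry a FLAG-tagged Kdm3a cDNA behind the αMHC promoter, which is active in cardiomyocytes, WT animals do not, and no other allele or drug is named for either genotype. The labels do not say which transgenic line was arrayed. Each array is 1 animal, so the sham groups have no replicate.

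KDM3A is a histone demethylase that removes repressive methyl marks from histone H3 and so favours transcription of its target genes. The 10 genes are not a known pathway. ND5 is a mitochondrially encoded subunit of respiratory complex I, and Ces1d hydrolyses esters and stored triacylglycerol. Serpina3n is a secreted serine protease inhibitor of the acute-phase response, Ncam1 a cell adhesion molecule best known from nerve and regenerating or stressed muscle, Pam the enzyme that amidates peptide hormones and an abundant protein of atrial secretory granules, and Gal3st3 a Golgi sulfotransferase acting on galactose. Cdk5r1 encodes p35, the activator of the kinase CDK5, Dusp23 is a small dual-specificity phosphatase, Ip6k2 makes inositol pyrophosphates, and Rpap3 is a subunit of the R2TP complex, which assembles large protein complexes with HSP90. RefSeq places ND5 on the mitochondrial genome, Pam and Dusp23 on chromosome 1, Ncam1 and Ip6k2 on 9, and the others on 8 (Ces1d), 11 (Cdk5r1), 12 (Serpina3n), 15 (Rpap3) and 19 (Gal3st3).

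At the targeted gene, Kdm3a, 2 libraries went against their labels. Of its 4 probes, one (ILMN_3118169) had raw intensities of 341 in WT Sham, 30614 and 229 in the libraries labelled as WT TAC 1 and 2, 247 in the library labelled Tg Sham, and 34642 and 33540 in Tg TAC. It was therefore bright in WT TAC replicate 1 and dim in Tg Sham, against both labels. Of the other 3 probes, one read 392 to 755, another read 238 to 301, and the last was not detected on any array, and none of them carried this step. Whether these probes lie inside the transgene is not known from the files, so the group names below are those of the labels, and values without both libraries are given beside the differences. The 10 genes divided over it. For 6 of them (ND5, Pam, Cdk5r1, Rpap3, Gal3st3 and Ip6k2) the 3 Tg arrays lay entirely on one side of the 3 WT arrays, as for 18.6% of all genes measured. For the other 4 (Ncam1, Serpina3n, Ces1d and Dusp23) the 3 arrays with a bright Kdm3a probe, 1 labelled WT and 2 labelled Tg, lay entirely on one side of the other 3, as for 16.2% of all genes. Between 15643 and 16492 probes per array were detected. Heart muscle identity was checked by cardiomyocyte markers, of which 8 of 9 were measured. Their mean level lay between 13.87 and 14.14 on the log2 scale on every array, with Myh6 between 14.63 and 15.11. They are listed for cardiomyocytes at large and do not check which chamber was taken.

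Levels are given as log2 normalized intensity of the brightest detected probe of a gene, and a probe counts as detected where its detection p, set against the negative control beads, is under 0.01. A difference of 1 is 2-fold. A fold given as at least a value holds only for the background correction used here (offset 16). Replicate numbers follow the labels, in which both TAC animals with number 1 come from animals numbered 445 and 446 and both with number 2 from animals numbered 17 and 18. The value in the RNA of a whole ventricle cannot tell more or fewer cells of a type apart from more or less RNA per cell.

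To show the sequence around the start sites, the promoter windows in RefSeq (GRCm38.p6) were read for the 5 of 10 genes that have one, from 250 bases before to 50 after the start. The genes without an entry are ND5, Ncam1, Ces1d, Gal3st3 and Cdk5r1. The 3 genes with a single annotated start, of which 2 read higher and 1 lower in Tg TAC, are printed first, followed by both starts of Ip6k2, the gene with the most probes in accord. Capitals mark matches, on either strand, to the TATA box (TATAAA), the CCAAT box, the GC box (GGGCGG), a STAT-type palindrome (TTCNNNGAA) or the full cyclic AMP response element (TGACGTCA). None of these 5 motifs contains another.
Serpina3n, chr12:104406458-104406757, plus strand: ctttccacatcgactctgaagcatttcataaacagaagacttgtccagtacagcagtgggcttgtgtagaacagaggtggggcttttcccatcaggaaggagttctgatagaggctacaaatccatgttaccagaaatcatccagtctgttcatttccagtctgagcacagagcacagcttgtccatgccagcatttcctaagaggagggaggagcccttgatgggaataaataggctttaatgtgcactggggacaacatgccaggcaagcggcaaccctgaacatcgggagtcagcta
Rpap3, chr15:97705773-97706072, minus strand: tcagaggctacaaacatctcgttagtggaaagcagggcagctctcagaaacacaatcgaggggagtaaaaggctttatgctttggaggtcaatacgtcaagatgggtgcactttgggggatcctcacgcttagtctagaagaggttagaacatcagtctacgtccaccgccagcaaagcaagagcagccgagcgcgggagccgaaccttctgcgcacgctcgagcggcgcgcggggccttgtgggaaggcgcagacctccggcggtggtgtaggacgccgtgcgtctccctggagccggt
Dusp23, chr1:172632925-172633224, minus strand: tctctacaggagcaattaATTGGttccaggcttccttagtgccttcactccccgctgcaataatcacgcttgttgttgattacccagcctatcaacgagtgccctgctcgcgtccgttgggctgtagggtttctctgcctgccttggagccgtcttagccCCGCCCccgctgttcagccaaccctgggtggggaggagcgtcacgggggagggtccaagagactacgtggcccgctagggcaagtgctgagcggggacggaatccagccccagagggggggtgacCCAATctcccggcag
Ip6k2, upstream start, chr9:108783562-108783861, plus strand: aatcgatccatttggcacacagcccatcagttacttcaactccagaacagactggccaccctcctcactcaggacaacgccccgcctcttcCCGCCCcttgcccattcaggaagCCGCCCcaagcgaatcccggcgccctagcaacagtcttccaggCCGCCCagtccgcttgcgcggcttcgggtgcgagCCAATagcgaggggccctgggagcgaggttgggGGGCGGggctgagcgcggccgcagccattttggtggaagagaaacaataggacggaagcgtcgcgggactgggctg
Ip6k2, downstream start, chr9:108795744-108796043, plus strand: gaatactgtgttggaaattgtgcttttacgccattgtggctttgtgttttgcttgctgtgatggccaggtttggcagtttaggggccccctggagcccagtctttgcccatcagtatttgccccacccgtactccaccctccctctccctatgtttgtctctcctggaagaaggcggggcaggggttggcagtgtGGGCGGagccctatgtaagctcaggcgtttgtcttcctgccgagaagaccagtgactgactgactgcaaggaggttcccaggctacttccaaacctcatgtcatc
The Serpina3n and Rpap3 windows held none of the 5 motifs in these letters. The Dusp23 window held 2 CCAAT boxes and 1 GC box. The upstream Ip6k2 window held 4 GC boxes and 1 CCAAT box and the downstream one 1 GC box, and each of the 2 overlapping Pam windows held 3 GC boxes. A match is a run of letters and not a shown binding site. Of all 32851 windows in the table, 35.7% held the GC box, 37.4% the CCAAT box, 13.6% the TATA box, 8.3% the STAT-type palindrome and 1.79% the cyclic AMP response element. The GC content was 48.7% for Serpina3n, 58.7% for Rpap3 and 61.3% for Dusp23, and 64.3% and 54.7% for the upstream and downstream Ip6k2 windows.

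Among the metabolic genes, ND5 had the widest separation of the 10. Its single probe (ILMN_2504544) is annotated to no transcript or clone accession. It read 4.94 in WT Sham and 5.39 and 5.66 in the libraries labelled WT TAC. In the Tg Sham library it read 7.24, and in Tg TAC 8.01 and 9.06. All 3 Tg arrays lay above all 3 WT arrays. The raw intensities were 123, 143 and 141 in the WT arrays and 225, 355 and 562 in the Tg arrays, in the same order. The WT Sham array did not detect the probe. The TAC group means were 5.53 ± 0.19 and 8.53 ± 0.74 (SD, n = 2 each), a difference of 3.01 or 8.03-fold, and 2.87 without the library labelled WT TAC replicate 1. ND5 in the library labelled Tg Sham was at least 3.84-fold above WT Sham, 1 array a side. Without background correction this sham difference was 1.00 on the log2 scale, and the TAC difference was 1.75 where it was 3.01 with it.

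The other mitochondrially encoded genes measured had smaller differences, most of them below 0. ND1, ND4, CYTB, COX2 and ATP6 read 14.0 to 15.2 over the arrays and ND4L 11.7 to 12.7, above ND5 on every array. Whether the ND5 probe reads the ND5 transcript was not tested. Of the 12 other genes in that list 7 were measured, of which 2 read higher and 5 lower in Tg TAC, with a median difference of -0.24 beside 0.01 over all genes. ND6, another complex I subunit, read 6.32, 6.56 and 6.68 in the WT arrays and 5.94, 5.80 and 5.69 in the Tg arrays, a TAC difference of -0.88. ND4L differed by -0.72 and COX2, a subunit of cytochrome oxidase, by -0.57, both without overlap of the TAC groups. ND4, a further complex I subunit, differed by 0.08.

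Ces1d went the other way and varied most between animals. Its single probe (ILMN_2625893) read 12.15 in WT Sham, 10.31 and 12.67 in the libraries labelled WT TAC, 11.76 in the library labelled Tg Sham, and 7.77 and 10.77 in Tg TAC. It is the only one of the 10 whose TAC groups overlapped, since Tg TAC replicate 2 lay above the library labelled WT TAC replicate 1. Within the same replicate number the Tg array differed by -2.54 in number 1, where the raw intensities were 316 in Tg and 1622 in WT, and by -1.90 in number 2. The group means were 11.49 ± 1.67 and 9.27 ± 2.12 (SD, n = 2 each), a difference of -2.22 that any of the 4 libraries moved by over 1.5 times. It was -3.40 without the library labelled WT TAC replicate 1, -1.04 without WT TAC replicate 2, -0.72 without Tg TAC replicate 1 and -3.72 without Tg TAC replicate 2. In sham hearts Ces1d differed by -0.39.

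In the list of carboxylesterases and neutral lipid enzymes, 12 of 24 other genes were measured, of which 4 read higher and 8 lower in Tg TAC, with a median of -0.12. Dgat2, which makes triacylglycerol, read 13.21 in WT Sham, 12.40 and 13.25 in the libraries labelled WT TAC, 13.08 in the library labelled Tg Sham and 11.73 and 12.36 in Tg TAC. Like Ces1d it was lower on both replicate 1 TAC arrays than on the replicate 2 array of the same genotype. Dgat1 differed by 0.50 and Lipe, the hormone-sensitive lipase, by -0.44 between the TAC groups.

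**Figure D1:**
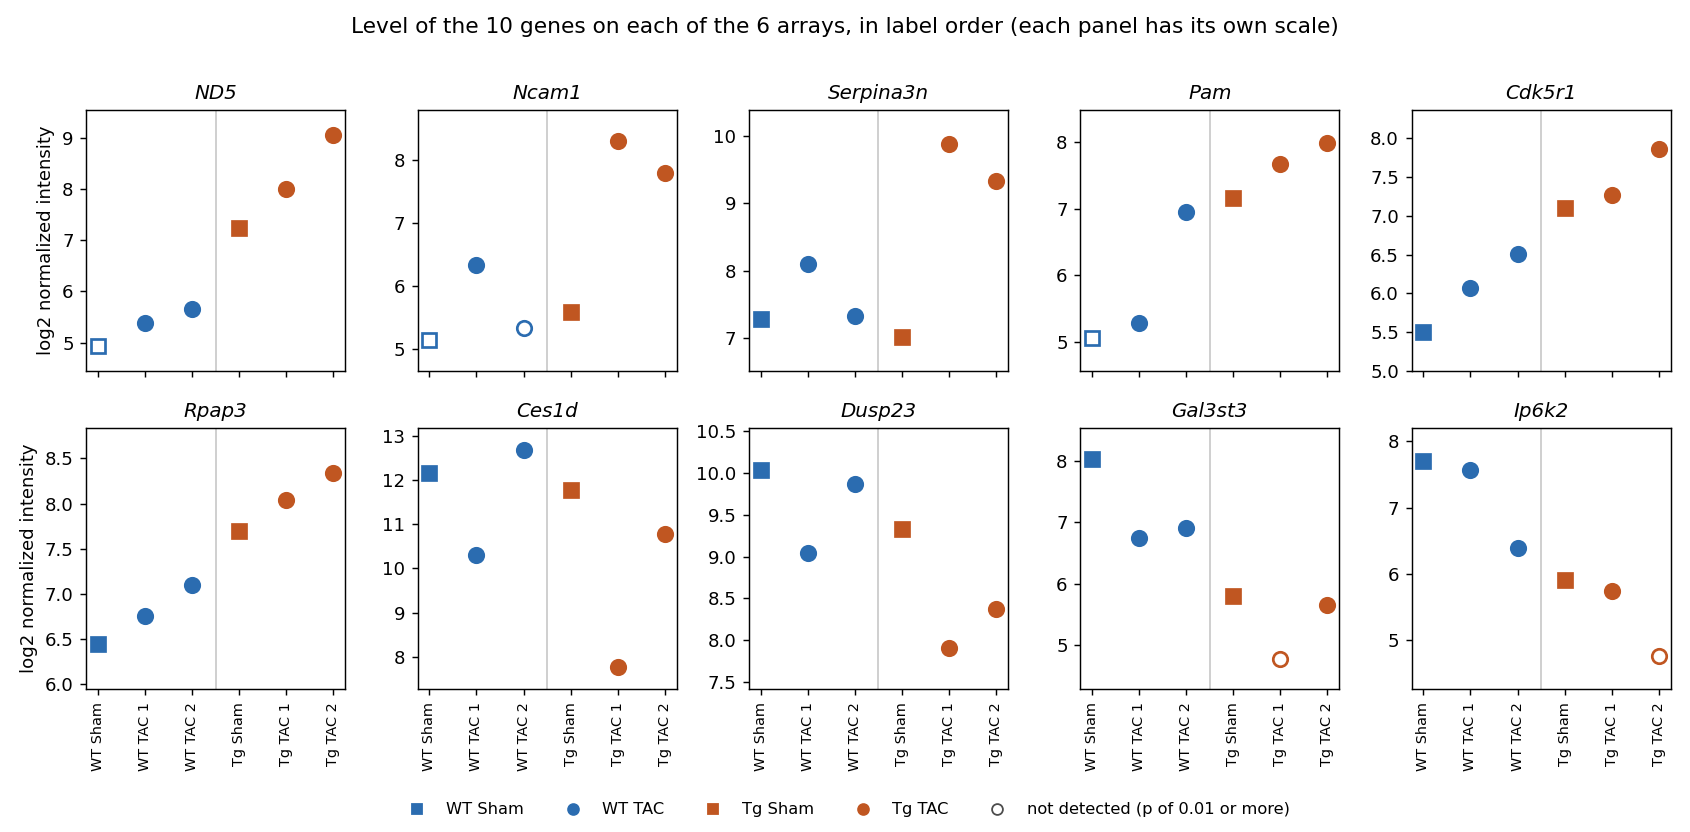
Log2 normalized intensity (vertical axis, own scale for each gene) of the 10 genes on the 6 arrays in the order of their sample labels, with squares for sham, circles for TAC, blue for WT, orange for Tg and open symbols where the probe was not detected. ND5, Pam, Cdk5r1 and Rpap3 ascend from left to right, Ip6k2 descends, and Ncam1 and Serpina3n stand highest on the 2 Tg TAC arrays with WT TAC replicate 1 next.

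Among the secreted and surface proteins, Serpina3n and Ncam1 had a like pattern, with Pearson r = 0.982 over the 6 arrays. The Serpina3n probe (ILMN_1246800) read 7.28 in WT Sham, 8.09 and 7.33 in the libraries labelled WT TAC, 7.01 in the library labelled Tg Sham, and 9.88 and 9.33 in Tg TAC. Both Tg TAC arrays were above the other 4, with raw intensities of 1044 and 665 against 204 to 426, and the library labelled WT TAC replicate 1 stood 0.76 above the remaining 3. The TAC means were 7.71 ± 0.54 and 9.61 ± 0.39 (SD, n = 2 each), a difference of 1.90 or 3.72-fold, and 2.28 without the library labelled WT TAC replicate 1. In sham hearts the difference was -0.27, the only one of the 10 that ran against the TAC difference. Mouse Serpina3 genes form a cluster of close copies, and whether the probe also reads a neighbour was not tested.

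The brightest Ncam1 probe (ILMN_2722864) read 5.15 in WT Sham, 6.33 and 5.34 in the libraries labelled WT TAC, 5.59 in the library labelled Tg Sham, and 8.29 and 7.79 in Tg TAC. It was detected on 1 of the 2 WT TAC arrays and on both Tg TAC arrays, at raw intensities of 191 and 131 against 411 and 286. The TAC means were 5.83 ± 0.70 and 8.04 ± 0.35 (SD, n = 2 each), a difference of 2.21. Against WT TAC replicate 2 alone, which did not detect the probe, Tg TAC was at least 6.12-fold higher. Without background correction the difference of the TAC means was 1.24. The library labelled Tg Sham was at least 1.22-fold above WT Sham, where the probe was not detected. The other 3 Ncam1 probes were detected on 1 array or none and differed between the TAC groups by -0.19, 0.12 and 0.06. The Ncam1 difference therefore rests on 1 of 4 probes.

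The lists tied to these 2 genes had members on both sides of 0. In the acute-phase and gp130 list 13 of 26 other genes were measured, of which 6 read higher and 7 lower in Tg TAC, with a median of -0.21. Cebpb, a transcription factor of the acute-phase response, read 12.17, 12.44 and 11.14 in the WT arrays and 10.89, 10.98 and 10.71 in the Tg arrays, a TAC difference of -0.94 and a sham difference of -1.28. Lcn2, a secreted iron-carrier binding protein, differed by -0.58 and the metallothionein Mt1 by -0.56. In the neural adhesion list 4 of 14 were measured, and their largest TAC differences were -0.48 for the receptor Fgfr1, 0.47 for St8sia4, which adds polysialic acid to NCAM, and 0.41 for Prnp.

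Pam and Gal3st3, both enzymes of the secretory pathway, ran in opposite directions, in sham hearts as well as in TAC. Pam (ILMN_2626294) read 5.06 in WT Sham, 5.28 and 6.95 in the libraries labelled WT TAC, 7.16 in the library labelled Tg Sham, and 7.66 and 7.98 in Tg TAC. Its level in WT TAC replicate 2 was 1.67 above that in replicate 1 and 0.21 below the library labelled Tg Sham, so the step lies between the WT TAC animals. The TAC means were 6.11 ± 1.18 and 7.82 ± 0.22 (SD, n = 2 each), a difference of 1.71 that fell to 0.87 without the library labelled WT TAC replicate 1. The library labelled Tg Sham was at least 3.63-fold above WT Sham, where the probe was not detected, and without background correction this sham difference was 0.91 on the log2 scale. The second Pam probe was not detected on any array.

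Gal3st3 (ILMN_3033192) read 8.03 in WT Sham, 6.74 and 6.91 in the libraries labelled WT TAC, 5.81 in the library labelled Tg Sham, and 4.79 and 5.66 in Tg TAC, where 1 of the 2 arrays detected it. All 3 WT arrays lay above all 3 Tg arrays, with raw intensities of 379, 224 and 206 against 141, 120 and 137. The TAC means were 6.83 ± 0.12 and 5.22 ± 0.61 (SD, n = 2 each), a difference of -1.60, and -1.69 without the library labelled WT TAC replicate 1. The sham difference of -2.22 was larger than the TAC difference. One further Gal3st3 probe was detected on WT Sham alone, where it read 5.58 against 4.40 to 4.58 on the other arrays, and the third was not detected on any array.

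In the list of peptide processing and secretory granule genes 8 of 20 others were measured, of which 3 read higher and 5 lower in Tg TAC, with a median of -0.17. Kalrn, a partner of PAM that encodes a guanine nucleotide exchange factor, read 6.12, 6.48 and 5.56 in the WT arrays and 5.32, 4.96 and 5.07 in the Tg arrays, where it was not detected on any of the 3. Cpe, the carboxypeptidase that trims peptide hormones, differed by 0.46, Adm by -0.29 and Nppa, the atrial natriuretic peptide, by -0.28 with overlapping groups. Of the galactose sulfation genes 7 of 11 others were measured, with 3 higher and 4 lower. Chst2, another Golgi sulfotransferase, was detected on the 3 WT arrays and in the library labelled Tg Sham but on neither Tg TAC array, so WT TAC was at least 1.45-fold above Tg TAC, while Chst1 and Papss2 both differed by -0.35 between the TAC groups.

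Of the signalling genes, Ip6k2 had 3 detected probes that ran together. The brightest (ILMN_3055507) read 7.70 in WT Sham, 7.57 and 6.39 in the libraries labelled WT TAC, 5.90 in the library labelled Tg Sham, and 5.74 and 4.75 in Tg TAC. All 3 probes read lower in Tg TAC without overlap, by -1.74, -1.65 and, for the dimmest, -0.93. They also read lower in the library labelled Tg Sham than in WT Sham, by -1.80, -1.61 and -1.59. The dimmest was detected on 2 arrays, WT Sham and WT TAC replicate 1. Its separation of WT TAC replicate 2 from Tg TAC is therefore between readings below detection, and its reading in Tg Sham is also below detection. The TAC means of the brightest were 6.98 ± 0.83 and 5.24 ± 0.70 (SD, n = 2 each), and its difference of -1.74 was -1.15 without the library labelled WT TAC replicate 1. Replicate 2 of Tg TAC did not detect any of the 3 probes.

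Its paralogs Ip6k1 and Ip6k3 differed by -0.36 and 0.14 between the TAC groups. Ip6k1 read 9.88, 9.73 and 9.64 in the WT arrays and 9.47, 9.27 and 9.39 in the Tg arrays, so its 3 Tg arrays were also below its 3 WT arrays. Of the 13 other inositol phosphate genes 11 were measured, with 6 higher and 5 lower in Tg TAC and a median of 0.04. Itpkb, a kinase that phosphorylates inositol trisphosphate, differed by -0.57 and Itpkc by 0.29.

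Cdk5r1 (ILMN_1259339) read 5.50 in WT Sham, 6.07 and 6.51 in the libraries labelled WT TAC, 7.10 in the library labelled Tg Sham, and 7.27 and 7.87 in Tg TAC. The 3 Tg arrays were above the 3 WT arrays, although the raw intensities were low, at 140, 174 and 178 against 212, 254 and 297. The TAC means were 6.29 ± 0.31 and 7.57 ± 0.42 (SD, n = 2 each), a difference of 1.28, and 1.06 without the library labelled WT TAC replicate 1. The sham difference was 1.60. A second probe, detected on 4 arrays, differed by 0.86 between the TAC groups without overlap and by 0.54 in sham, and the third was not detected on any array.

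The kinase it activates, Cdk5, differed by -0.20 between the TAC groups, which overlapped. Of the 13 other genes in the Cdk5 list 10 were measured, 5 higher and 5 lower in Tg TAC. The centrosomal protein gene Cdk5rap2 differed by 0.55, Cdk14 by 0.40 and Cdk5rap3 by 0.37.

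Dusp23 was lower in Tg TAC at one probe and not at the other. The brighter probe (ILMN_3160863) read 10.04 in WT Sham, 9.05 and 9.86 in the libraries labelled WT TAC, 9.33 in the library labelled Tg Sham, and 7.91 and 8.37 in Tg TAC. Its TAC means were 9.45 ± 0.58 and 8.14 ± 0.33 (SD, n = 2 each), a difference of -1.31, and -1.72 without the library labelled WT TAC replicate 1. The other probe (ILMN_1252812), also detected on all 6 arrays, read 7.83, 7.27 and 8.83 in the WT arrays and 8.68, 7.77 and 7.97 in the Tg arrays. There the TAC groups overlapped, the replicate 1 pair differed by 0.50 and the replicate 2 pair by -0.86, and the sham pair differed by 0.85 where the brighter probe gave -0.71.

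Among the other dual-specificity phosphatases 15 of 23 were measured, with 5 higher and 10 lower in Tg TAC and a median of -0.22. Dusp8, which dephosphorylates stress-activated kinases, read 10.36, 10.03 and 9.75 in the WT arrays and 9.59, 9.69 and 8.23 in the Tg arrays, a TAC difference of -0.93. Dusp4 differed by 0.53 and Dusp27 by 0.51.

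Rpap3, the scaffold subunit of R2TP, differed by nearly the same amount in all 3 pairs of arrays. The brighter probe (ILMN_2819530) read 6.45 in WT Sham, 6.76 and 7.10 in the libraries labelled WT TAC, 7.69 in the library labelled Tg Sham, and 8.04 and 8.34 in Tg TAC. The TAC means were 6.93 ± 0.24 and 8.19 ± 0.21 (SD, n = 2 each), and the differences were 1.28 and 1.23 in replicates 1 and 2 and 1.25 in sham. Without the library labelled WT TAC replicate 1 the TAC difference was 1.09. The second probe (ILMN_2763772), detected on every array at raw intensities of 152 to 180, differed by 0.19 between the TAC groups, which overlapped, and by 0.33 in sham.

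The partners of RPAP3 differed less. Of the 20 other genes of R2TP and HSP90 assembly 14 were measured, 7 higher and 7 lower in Tg TAC, with a median of 0.00. Pih1d1, the R2TP subunit that binds RPAP3, differed by 0.29, and the ATPases Ruvbl1 and Ruvbl2 by 0.20 and -0.17. Hsp90aa1 differed by 0.49 with overlapping groups and Znhit2 by 0.29.

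**Figure D2:**
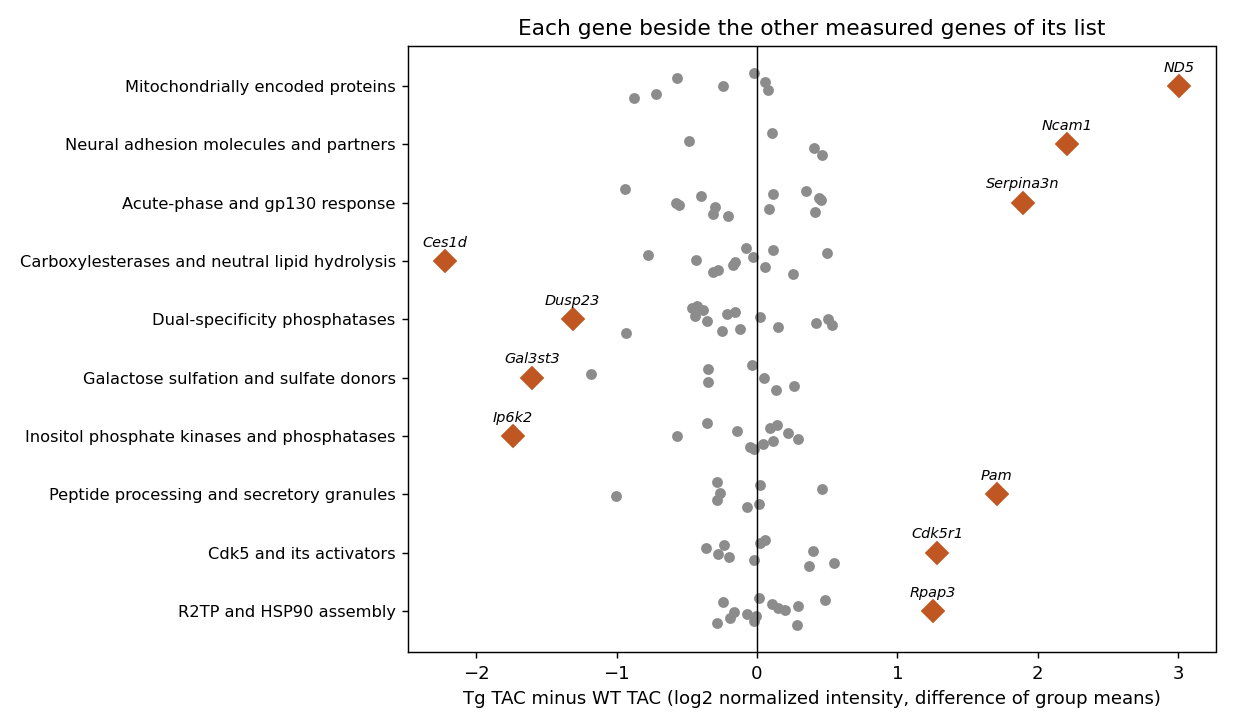
Tg TAC minus WT TAC (horizontal axis, log2 normalized intensity, difference of the means of 2 arrays each) for each of the 10 genes (orange diamonds) and for the other measured genes of the list tied to it (grey points). ND5 stands at 3.01 while the other mitochondrially encoded genes lie between -0.88 and 0.08.

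Across probes, 15 of the 22 probes annotated to the 10 genes were detected on at least 2 arrays. ND5, Serpina3n and Ces1d had a single probe, and Ncam1, Gal3st3 and Pam had a single probe detected on at least 2 arrays, so nothing in the files checks these 6 genes at a second probe. Ip6k2 and Cdk5r1 had further probes with the same direction and no overlap. The dimmest Ip6k2 probe was detected on WT Sham and WT TAC replicate 1 alone. Dusp23 and Rpap3 each had a second well detected probe whose TAC groups overlapped. Probe sequences were not used here.

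**Figure D3:**
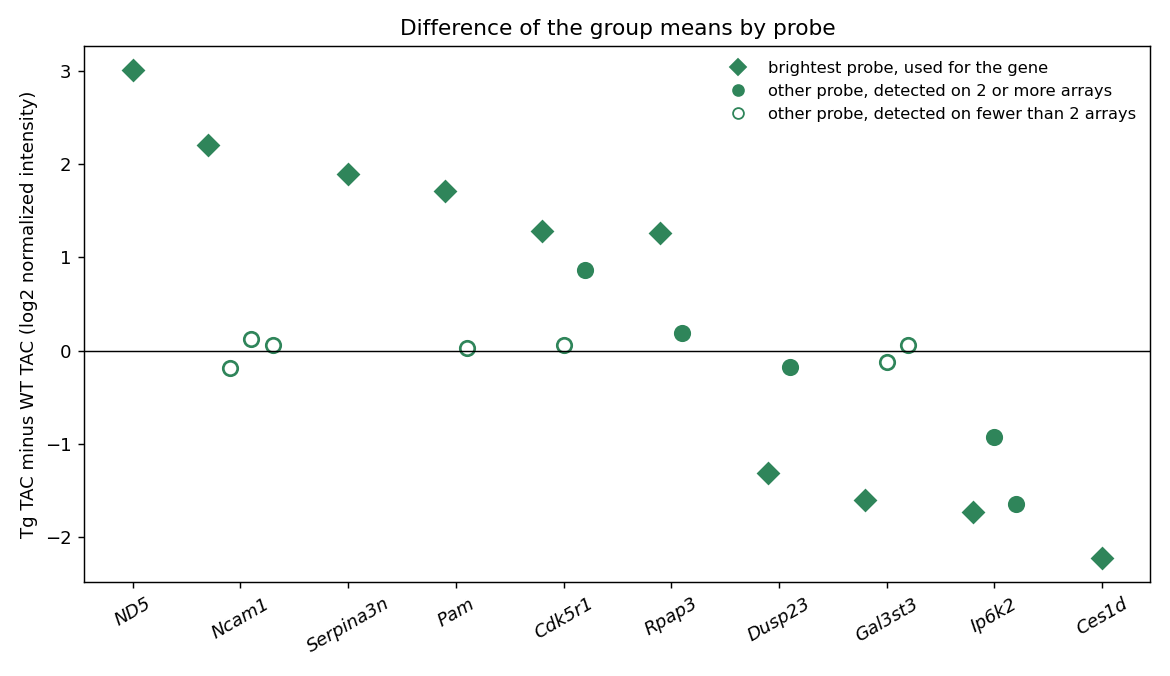
Tg TAC minus WT TAC (vertical axis, log2 normalized intensity) for each of the 22 probes, with diamonds for the brightest probe of a gene, filled circles for other probes detected on 2 or more arrays and open circles for the rest. The 3 Ip6k2 probes lie between -1.74 and -0.93, the one at -0.93 detected on neither Tg TAC array. The second probes of Dusp23 and Rpap3 lie at -0.18 and 0.19.

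Taking the genes side by side, 9 of the 10 did not overlap between the TAC groups, 6 higher and 3 lower in Tg TAC. Because the genes were picked on this contrast, these counts describe the choice, and with 2 arrays a group many genes separate: 20.7% of all 9577 genes were higher and 18.8% lower in Tg TAC without overlap. Adding a 2-fold difference left 109 genes, 1.14% of all, among them these 9. The choice named no threshold, and the smallest difference among the 10 was 1.26 for Rpap3, beside a median absolute difference of 0.21 over all genes. Without the library labelled WT TAC replicate 1, which leaves 1 WT TAC array, none of the 10 overlapped. That count again describes the choice. With 1 array on a side groups separate more easily, and the share over all genes was not counted there.

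The rule of the choice named the TAC pairs and not the sham arrays. Earlier results of these data were known when the genes were chosen, so the sham values are no independent check. Of the 10 genes, 6 differed by over 2-fold between the library labelled Tg Sham and WT Sham, each in the direction of its TAC difference. They were ND5, Pam, Cdk5r1 and Rpap3, higher in the library labelled Tg Sham, and Gal3st3 and Ip6k2, lower. These sizes depended on the background correction, since without it Gal3st3 alone of the 10 passed 2-fold in sham and in the deposited normalized table only ND5 and Gal3st3 did, with directions kept. Over all genes 245, or 2.56%, passed 2-fold in sham, and of the 109 genes without overlap and past 2-fold in TAC, 23.9% passed it in the TAC direction. At any size 9 of the 10 had the TAC direction in sham, beside 80.7% of the 109. The exception was Serpina3n, Ces1d (-0.39) and Dusp23 (-0.71) had sham differences under 2-fold, and Ncam1 had only the bound given above. With 1 array a side these differences have no replicate check, and 1 of the sides is the library labelled Tg Sham, in which the bright Kdm3a probe was dim.

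**Figure D4:**
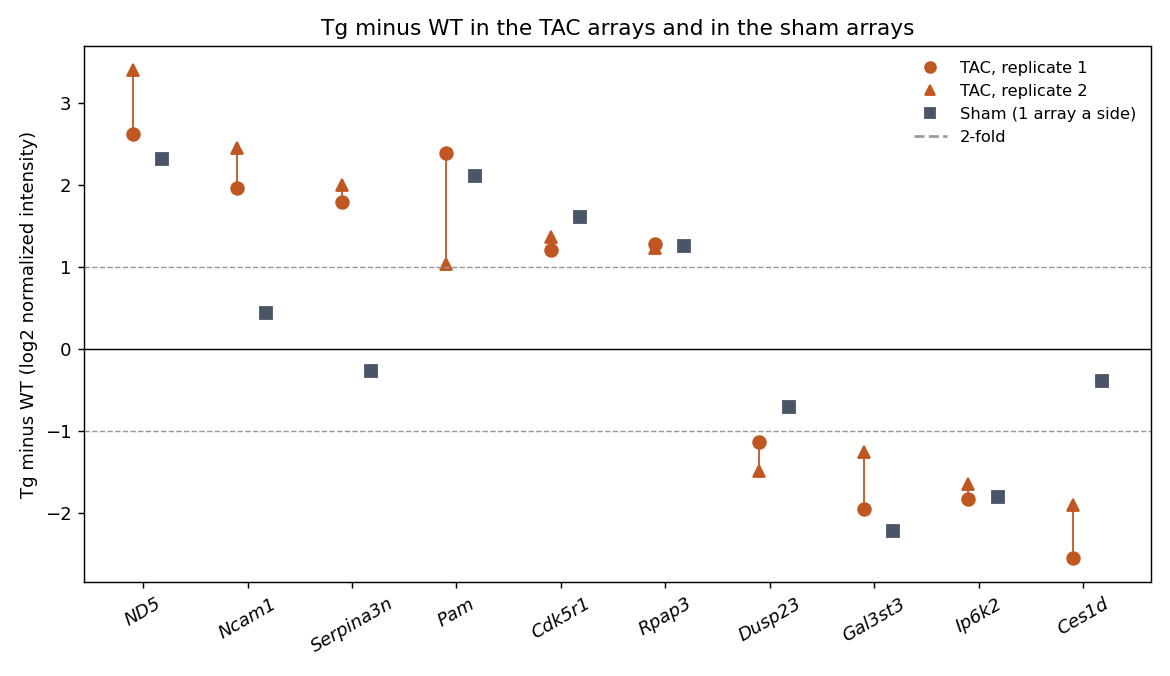
Tg minus WT (vertical axis, log2 normalized intensity) within TAC replicate 1 (circles), TAC replicate 2 (triangles) and sham (squares, 1 array a side), with dashed lines at 2-fold. With background correction the sham square lies past 2-fold on the TAC side for 6 genes (1 without it), and for Ncam1, Serpina3n, Ces1d and Dusp23 it lies between the dashed lines, with ND5, Ncam1 and Pam, not detected in WT Sham, drawn at their measured readings.

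The question of how constriction itself moved these genes was put to all 6 arrays in 1 model with genotype and surgery. In this model no gene of 9577 passed an adjusted p of 0.05 in limma (0%), and 559 genes (5.84%) had an unadjusted p under 0.05, as did 7 of the 10. The methods' t-test also called none and had 302 genes at an unadjusted p under 0.05. Choosing genes that separate in TAC favours a small spread between replicates, which these p-values use, so the count of 7 is not independent of the choice. The estimates were 1.57 ± 0.46 for Ncam1 and 1.51 ± 0.49 for Serpina3n (SE, limma adjusted p = 0.82 for both), 0.94 ± 0.33 for ND5, 0.86 ± 0.44 for Pam, 0.63 ± 0.24 for Cdk5r1 and 0.49 ± 0.18 for Rpap3. They were -1.58 ± 0.97 for Ces1d, -0.90 ± 0.29 for Gal3st3, -0.89 ± 0.28 for Dusp23 and -0.69 ± 0.40 for Ip6k2, and the adjusted p over the 10 was 0.82 to 0.83 in limma. Readings of ND5, Ncam1 and Pam in WT Sham, below detection, enter these estimates as measured. The same holds for Ncam1 in WT TAC replicate 2, Gal3st3 in Tg TAC replicate 1 and Ip6k2 in Tg TAC replicate 2. Single animals moved several of the estimates by over 1.5 times. With 1 genotype's sham array left out, the estimate is the TAC mean minus the sham array of the other genotype, as given below. Without WT Sham the estimate was 2.45 for Ncam1, 2.60 for Serpina3n, -2.50 for Ces1d and -0.59 for Gal3st3. Without Tg Sham it was 0.68 for Ncam1, 0.43 for Serpina3n, -0.66 for Ces1d, -0.58 for Dusp23 and 0.59 for ND5. Ces1d was -0.80 without Tg TAC replicate 1, and without WT TAC replicate 2 Pam was 0.47 and Ip6k2 -0.44.

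By genotype, the mean of the Tg TAC arrays was 2.45 above the library labelled Tg Sham for Ncam1 and 2.60 for Serpina3n, and the WT TAC mean was 0.68 and 0.43 above WT Sham. For Rpap3 the values were 0.49 in both genotypes. Whether the response differed between genotypes was not tested, and each has 1 sham animal. Among the animals numbered 444 to 454 alone, TAC minus Sham was 0.81 in WT and 2.87 in Tg for Serpina3n, and -1.84 and -3.99 for Ces1d. For Ncam1 it was 2.70 in Tg, and WT TAC replicate 1 was at least 2.03-fold above WT Sham, which did not detect the probe. Measured readings of each of the 10 had the sign of the pooled estimate in both genotypes there. These arrays are part of the pooled estimate, so the shared sign is no separate check. Its share over all genes was not counted. Leaving out the 2 libraries whose Kdm3a signal contradicts the label leaves no Tg Sham. The estimate is then WT TAC replicate 2 minus WT Sham, 1 array a side. This difference was 0.05 for Serpina3n, 0.19 for Ncam1, 0.52 for Ces1d and -0.17 for Dusp23. For the other 6 genes it was 0.66 to 1.89 in size.

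**Figure D5:**
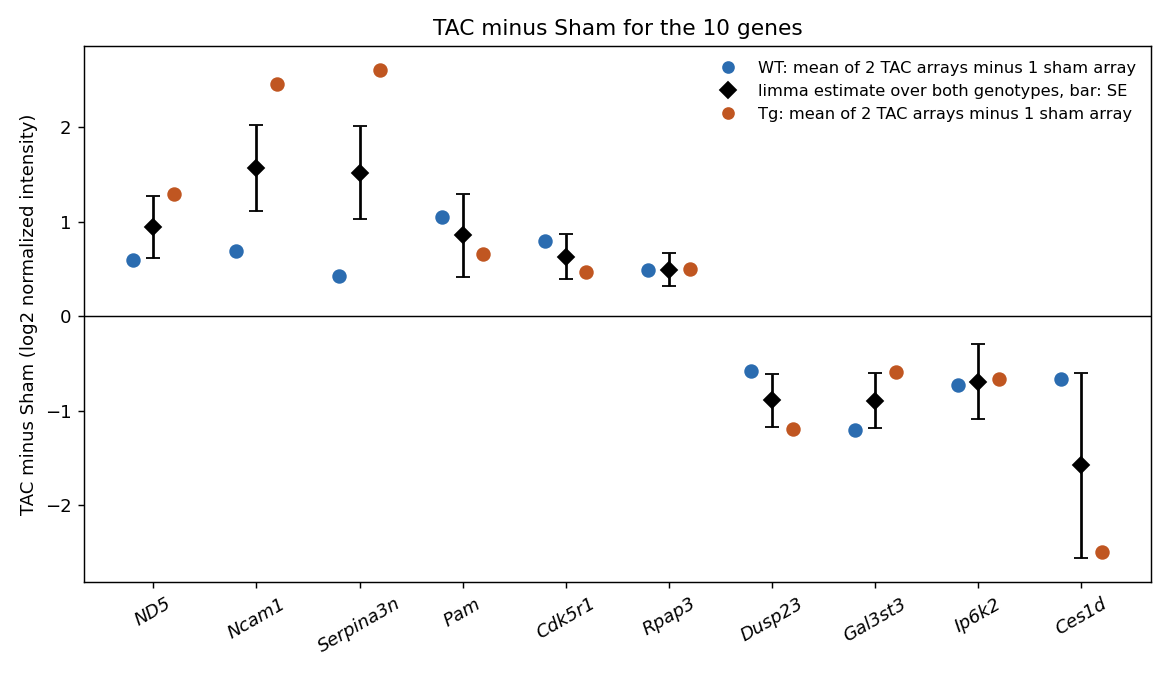
TAC minus Sham (vertical axis, log2 normalized intensity) for the 10 genes, with black diamonds and bars for the limma estimate over both genotypes and its SE, blue circles for WT and orange circles for Tg (mean of 2 TAC arrays minus 1 sham array). The Tg circles of Ncam1 and Serpina3n stand at 2.45 and 2.60, above the WT circles at 0.68 and 0.43, and none of the 10 estimates passed the adjusted threshold in this model, which has no replicate term.

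The arrays carry sample labels from 1 to 6, and after normalization 5 of the 10 genes were in strict order over them. ND5, Pam, Cdk5r1 and Rpap3 ascended at every step and Ip6k2 descended at every step. In raw intensity only Pam and Cdk5r1 were in strict order, with reversals of 2 to 5 intensity units in ND5, Rpap3 and Ip6k2. Over all genes 1.43% ascended and 1.05% descended strictly, and of the 109 genes without overlap and past 2-fold in TAC, 13.8% did one or the other. The labels place WT at 1 to 3 and Tg at 4 to 6, with the sham animal first in each genotype, so label order and genotype cannot be told apart for a gene of this shape. The step between WT TAC replicate 2 and the library labelled Tg Sham, where the genotype label changes, was 1.58 for ND5, 0.60 for Cdk5r1, 0.59 for Rpap3 and 0.21 for Pam, and -0.49 for Ip6k2. It was the largest of the 5 steps for ND5, Cdk5r1 and Rpap3 but not for Pam or Ip6k2, whose largest steps, 1.67 and -1.17, lay between the WT TAC replicates. For Cdk5r1 the step between the Tg TAC replicates, 0.59, was nearly as large.

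Of the 109 genes, 41.3% had all 3 Tg arrays on one side of the 3 WT arrays, as 6 of the 10 genes did, and 53.2% had the 3 arrays with a bright Kdm3a probe on one side of the other 3, as the other 4 did. The gap between these sets of arrays was 0.74 for Ncam1, 0.76 for Serpina3n, 1.00 for Ces1d and 0.29 for Dusp23. Correlations over the 6 arrays are a description, since all genes share the same libraries. Among ND5, Pam, Cdk5r1 and Rpap3, Pearson r lay between 0.895 and 0.989. Of the lower genes, Ces1d and Dusp23 had r = 0.895 with each other and Ces1d and Ip6k2 r = 0.279. The 3 genes most like the mean profile of the 6 higher genes were Sfi1 (r = 0.997), Mapk8ip1 (r = 0.994) and Zdhhc5 (r = 0.994), and those most like the 4 lower genes were Zfp524 (r = 0.998), Lrif1 (r = 0.993) and Trappc13 (r = 0.992), over 6 arrays. Their ranges were narrower. Zdhhc5 read 7.46, 7.63 and 7.78 in the WT arrays and 7.84, 8.21 and 8.34 in the Tg arrays, and Zfp524 read 8.34, 8.01 and 8.10 against 7.90, 7.44 and 7.61.

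Some markers of other cell types moved with some of these genes. The 6 fibroblast markers measured had a median TAC difference of -0.06, none of them without overlap. For the 7 macrophage markers measured the median was -0.10, with 1 higher and 0 lower without overlap. The 2 mesothelial and 2 erythroid markers measured had medians of 0.27 and -0.31. Myl4, the only atrial cardiomyocyte marker of 4 that was measured, read 7.10 in WT Sham, 8.41 and 6.75 in the libraries labelled WT TAC, 7.38 in the library labelled Tg Sham, and 9.05 and 8.71 in Tg TAC, a TAC difference of 1.30. Its Tg TAC arrays were above the other 4, as were those of Ncam1 and Serpina3n. The neutrophil markers S100a8 and S100a9, 2 of 4 measured, had a mean level of 7.86, 8.40 and 6.45 in the WT arrays and 5.23, 5.73 and 6.64 in the Tg arrays, a sham difference of -2.62 that includes S100a9 below detection in the library labelled Tg Sham. The hepatocyte marker Ttr, 1 of 5 measured, read 5.54, 7.06 and 4.46 in the WT arrays and 4.85, 6.55 and 7.75 in the Tg arrays, and was not detected on WT TAC replicate 2 or in the library labelled Tg Sham. Of the smooth muscle and pericyte markers all 7 were measured, 2 higher and 5 lower in Tg TAC, with a median TAC difference of -0.41. Without overlap 4 of them were lower, among them Notch3 (-0.70). The 2 higher, Acta2 (0.60) and Cspg4 (0.11), overlapped. Of the 6 endothelial markers measured 3 were lower without overlap, among them Emcn (-0.58) and Pecam1 (-0.51), and 1 was higher. Of the neural and Schwann cell markers, listed for Ncam1, 4 of 11 were measured, 1 higher and 3 lower in Tg TAC, with a median of -0.22. Sox10 (-0.13) and Mbp (-0.71, without overlap) were detected on 2 arrays each and Dbh (-0.32) on 4. Uchl1, detected on all 6, differed by 0.43 between the TAC groups, which overlapped. No adipocyte marker of 6, listed for Ces1d, was measured. The part of these cell types in the 10 differences was not tested.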

How the data were processed

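Total RNA of 6 left ventricles was amplified, biotin-labelled and read on Illumina mouse bead arrays. The authors deposited non-normalized bead intensities from GenomeStudio 2011.1, each with its detection p-value, and a table of normalized intensities whose method is not given in the sources used here. From the deposited intensity the background was corrected by normexp from the detection p-values (offset 16), log2 taken and arrays quantile-normalized (limma 3.58.1, R 4.3.3). The platform annotation gave a single symbol to 34885 of 45281 probes, several to 18 and none to 10378, and only the first were named. Probes with detection p under 0.01 on at least 2 arrays were kept, and the brightest probe stood for a gene (9577 genes). Depth on arrays is set by signal over background and the number of arrays.

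TAC was compared with Sham by limma (genotype and surgery, intensity trend, 3 residual degrees of freedom) with Benjamini-Hochberg adjustment over all genes. The fit was first run on simulated data of known answers to check the code. Tg against WT was described and not tested. The members and lists were chosen with earlier results of these data known. All 10 members were named with every probe. From each list up to 3 genes with the largest TAC difference were named, with paralogs or partners, and the 3 genes most like each mean profile. Same-numbered TAC arrays deviated together (r = 0.54 over 9577 genes), but 2 pairs do not settle a pairing. Alternatives were no background correction, an offset of 50, median scaling, the deposited table, other filters, the mean of the probes, other models and leaving out arrays.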

Additional observations from a re-analysis of the deposited data

Results flagged for a closer look

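Serpina3n was marked because its sham arrays ran against its TAC arrays. Tg minus WT was -0.27 in sham (1 array a side), while it was 1.79 and 2.00 in TAC replicates 1 and 2. The difference between the sham and TAC contrasts was not tested. The sham values were 7.28 in WT Sham and 7.01 in the library labelled Tg Sham, whose Kdm3a probe was dim. Across the alternatives the sham difference stayed between -0.50 and -0.16.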

How the results depend on the processing

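The TAC difference of each member kept its sign under every alternative that gave it a value. Without background correction sizes shrank to 0.66 to 1.99, and with the mean of the probes Dusp23 was -0.75 and Rpap3 0.72. Genes past 2-fold in sham numbered 66 without background correction, 69 in the deposited table and 122 with an offset of 50, against 245, and members past it 1, 2 and 5, against 6. With detection required on all 6 arrays, ND5, Ncam1, Gal3st3, Ip6k2 and Pam gave no value. Of the 5 others, 4 did not overlap in TAC, the contrast of the choice, and 4 had the TAC direction in sham. The shares over all genes were not counted under this filter. The Dusp23 sham difference was 0.07 with the mean of the probes. Leaving out 1 array, 0 to 4 genes were called between TAC and Sham by limma. The 4, all without WT TAC replicate 2 and named after their values were seen, were Kdm3a, Slc1a2, Septin6 and 3110040M04Rik, none a member. Without WT TAC replicate 2, the TAC arrays left are those with a bright Kdm3a probe, and on both sham arrays that probe is dim. Surgery and the Kdm3a probe step cannot be told apart in that fit. An arm left with 1 array is assumed to vary like the others. Leaving out both libraries that contradict the Kdm3a label, the Ces1d TAC minus Sham estimate was 0.52. It is then WT TAC replicate 2 minus WT Sham, 1 array a side. The sham comparison has no value then. With the replicate number as a block, limma called 93 genes between TAC and Sham (1749 at unadjusted p under 0.05), among them Ces1d (-2.92 ± 0.42, limma adjusted p = 0.035) and Dusp23 (-1.21 ± 0.19, limma adjusted p = 0.041). The block sets animals 17 and 18 against animals 444 to 454, and both sham animals are among the latter. Signal over background was low for several members: ND5, Pam, Cdk5r1 and Ncam1 read under 200 in raw intensity on at least 2 of the 3 WT arrays. On the Tg arrays Gal3st3 read 141, 120 and 137 and Ip6k2 144, 149 and 116.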
